A study of Mus musculus with 39 samples.

Results

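The transcripts described here were not well above background on the arrays of normal 2-cell stage mouse embryos. They were so at that stage after each of 2 histone deacetylase inhibitors (HDACi). They were chosen by the array scanner's flag that a spot lies well above its background. A probe was a member if the flag was set on all 3 T247-treated and all 3 MGCD0103-treated 2-cell arrays and on none of the 3 untreated 2-cell arrays. This rule found 731 of the 55681 probes on the array (1.31%), or 2.99% of the 24429 probes that were off on the 3 untreated 2-cell arrays. Probes off in the control, on on all 3 arrays of a single inhibitor and off on all 3 of the other were far fewer, 55 with T247 and 43 with MGCD0103. Between these lay 4223 probes that were off in the control and on on 1 to 5 treated arrays, the 55 and 43 included. Of the 4223, 358 were on on all 3 T247 arrays and 299 on all 3 MGCD0103 arrays. A further 19475 stayed off on all 9 2-cell arrays. The opposite pattern, on in all 3 controls and off on all 6 treated arrays, was found for 81 probes. Because the flags at the 2-cell stage chose the members, their 2-cell values are a description and were not tested. Leaving out 2-cell control replicate 2 raised the number of members to 1118, the widest change among the 9 2-cell arrays left out in turn.

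Histone deacetylases (HDACs) remove acetyl groups from histone tails, a step that generally goes with compact and transcriptionally quiet chromatin. MGCD0103 acts mainly on the Class I enzymes HDAC1, HDAC2 and HDAC3, and T247 is selective for HDAC3. In the mouse, maternal transcripts stored in the oocyte are degraded after fertilization, and the embryo's own genes are switched on in a minor wave in the zygote and a major wave in the 2-cell embryo (zygotic genome activation, ZGA). Most genes of differentiated tissues stay silent through these waves.

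B6D2F1 oocytes were fertilized in vitro with ICR sperm, and from 4 h after insemination the zygotes spent 6 h in medium with 10 µM T247 or 10 µM MGCD0103 before they returned to plain medium. Untreated embryos served as control. RNA from 100 embryos per sample was collected at 12, 24 and 48 h after insemination (1-, 2- and 4-cell stage), and oocytes at the germinal vesicle (GV) and metaphase II (MII) stages and untreated 8-cell embryos, morulae and blastocysts were also hybridized. There were 3 samples in each of 13 conditions and 39 1-colour arrays, with no 4-cell arrays for MGCD0103. The wild-type hybrid embryos carried no transgene, and the solvent of the inhibitors is not given in the sources used here.

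On the 39 arrays 44.4% to 58.3% of the probes were well above background and none was saturated. The lowest signal called well above background was 15.9 to 18.4 on the untreated 2-cell arrays, 11.5 to 15.2 on the T247 arrays and 12.8 to 17.1 on the MGCD0103 arrays, so the flag was set at somewhat lower signals in the treated samples. All treated arrays lay on slides 4 to 6 and all untreated arrays on slides 1 to 3, and slide and treatment cannot be told apart. The treated 1-cell arrays of each inhibitor shared the slide of its treated 2-cell arrays, and 293 members (40.1%) were off on all 6 of those 1-cell arrays. By inhibitor, 43.6% of the members were off on all 3 T247 1-cell arrays (all probes 44.4%) and 44.5% on all 3 of MGCD0103 (all probes 44.4%). The part of the slide in the members' levels was not tested. Of 11 oocyte and maternal store markers all 11 were on in each 2-cell group, and so were all 9 measured markers of the 2-cell embryo. Of 14 follicle cell markers 4 were on in the 2-cell control, 6 with T247 and 5 with MGCD0103, and their summed level was 15718 to 18821, 8810 to 9249 and 10914 to 11736. Of 10 sperm markers 2, 5 and 3 were on, with sums of 1011 to 1438, 710 to 878 and 1357 to 1478, and Akap4 of this list is a member. Of 7 trophectoderm markers 5, 6 and 6 were on, with sums of 4048 to 4811, 9137 to 9936 and 9713 to 10866. Of 7 markers of the inner cell mass and primitive endoderm 5, 6 and 6 were on, with sums of 11575 to 11926, 8229 to 8752 and 9766 to 10537. Of 5 measured markers of blood and other somatic cells 2 were on in each group, with sums of 425 to 809, 1705 to 1809 and 1191 to 1528. Off in all 3 groups were Ptx3, Inhba, Inha, Cyp11a1 and Lhcgr of the follicle cell list. So were Tnp2, Odf1, Smcp and Spata3 of the sperm list and Col3a1 and Alb of the blood and somatic list. The part of other cells in the members' levels was not tested. As each sample is a pool of embryos, a change in a part of the embryos and a change in every embryo cannot be told apart.

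The promoters of 4 members are shown because they stand for the courses described next. Ankrd34b had the highest rise in T247 embryos, Wnt16 is a secreted signal that was on in treated 2-cell embryos, Foxa2 was otherwise on in the blastocyst, and Mrgprg was on from the 1-cell stage onward after treatment. Each sequence is from RefSeq on GRCm38.p6 and runs 5′ to 3′ from 250 bases before to 50 bases after the start of the gene, and the motifs are described as letters in the window only. Capitals mark 3 promoter motifs searched on either strand. The first is the TATA box, spelled TATAAA. The second motif, known as the CAAT box, was searched as CCAAT. The last, a GC box that Sp factors are known to bind, was searched as GGGCGG.
Ankrd34b: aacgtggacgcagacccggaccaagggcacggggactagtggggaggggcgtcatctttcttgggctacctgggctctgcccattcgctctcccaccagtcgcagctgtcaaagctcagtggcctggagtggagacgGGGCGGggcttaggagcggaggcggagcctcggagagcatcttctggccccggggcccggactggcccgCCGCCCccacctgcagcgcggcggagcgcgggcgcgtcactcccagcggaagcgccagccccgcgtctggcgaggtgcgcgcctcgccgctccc
Wnt16: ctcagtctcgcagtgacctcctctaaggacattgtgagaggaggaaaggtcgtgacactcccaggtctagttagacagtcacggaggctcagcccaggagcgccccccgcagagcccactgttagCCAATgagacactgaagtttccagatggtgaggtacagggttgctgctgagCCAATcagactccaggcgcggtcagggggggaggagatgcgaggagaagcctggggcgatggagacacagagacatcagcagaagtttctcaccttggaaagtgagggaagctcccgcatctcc
Foxa2: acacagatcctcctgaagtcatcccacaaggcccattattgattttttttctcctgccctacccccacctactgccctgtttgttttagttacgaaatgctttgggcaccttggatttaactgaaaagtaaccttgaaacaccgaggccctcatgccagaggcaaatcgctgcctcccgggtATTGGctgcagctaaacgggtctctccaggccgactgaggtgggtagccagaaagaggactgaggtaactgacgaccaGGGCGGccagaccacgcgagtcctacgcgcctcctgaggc
Mrgprg: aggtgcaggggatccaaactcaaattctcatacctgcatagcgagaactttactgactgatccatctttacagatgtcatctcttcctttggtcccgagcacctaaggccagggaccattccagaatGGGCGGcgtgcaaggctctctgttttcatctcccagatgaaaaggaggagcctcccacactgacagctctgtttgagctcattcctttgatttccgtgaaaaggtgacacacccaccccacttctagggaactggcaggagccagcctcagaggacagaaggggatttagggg
The windows lie at chr13:92425719-92426018 (plus strand) for Ankrd34b, chr6:22287977-22288276 (plus) for Wnt16, chr2:148046920-148047219 (minus) for Foxa2 and chr7:143766944-143767243 (minus) for Mrgprg. The Ankrd34b window held 32 CpG dinucleotides and 2 GC boxes, the Wnt16 window 10 CpG and 2 CAAT boxes, the Foxa2 window 12 CpG, 1 CAAT box and 1 GC box, and the Mrgprg window 5 CpG and 1 GC box. None of the 4 held a TATA box. Of the 27025 promoters in the RefSeq set, 14.2% held a TATA box, 38.0% a CAAT box and 35.9% a GC box.

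The rise at the 2-cell stage was small for most members and large for a few. As the control was not well above background, it is given as a lower bound, in which a control value below the lowest well-above-background signal of its array was replaced by that signal. The median member was at least 2.07-fold higher with T247 (range 1.05 to 42.1) and at least 2.27-fold higher with MGCD0103 (range 1.06 to 43.9). With the lower bound of the pair, 329 members (45.0%) were at least 2-fold higher, 76 (10.4%) at least 4-fold, 12 at least 8-fold and 3 at least 16-fold. For 621 members (85.0%) every treated value lay above every control value and above the lowest well-above-background signal of the control arrays. The rule itself favours such a gap, as it used the flags of these arrays, and the share over all probes was not counted. Members and their near misses overlapped in size. The 339 probes that were on on 5 of the 6 treated arrays had a median lower bound of 1.16-fold, against 1.89-fold for the members, and the 684 probes that were on on all 6 treated arrays and on 1 control array had 1.63-fold. Among the named members with the lowest rise, Erf, Btnl9 and Ankmy1, the bounds with T247 were 1.26, 1.11 and 1.05, and the named probes with the highest rise among the 339, of Lypd10, Itga1 and Defa32, had bounds of 1.92, 1.94 and 1.48. The lower of the 2 bounds reached 2.30-fold among the 339 and 30.8-fold among the 684.

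**Figure D1:**
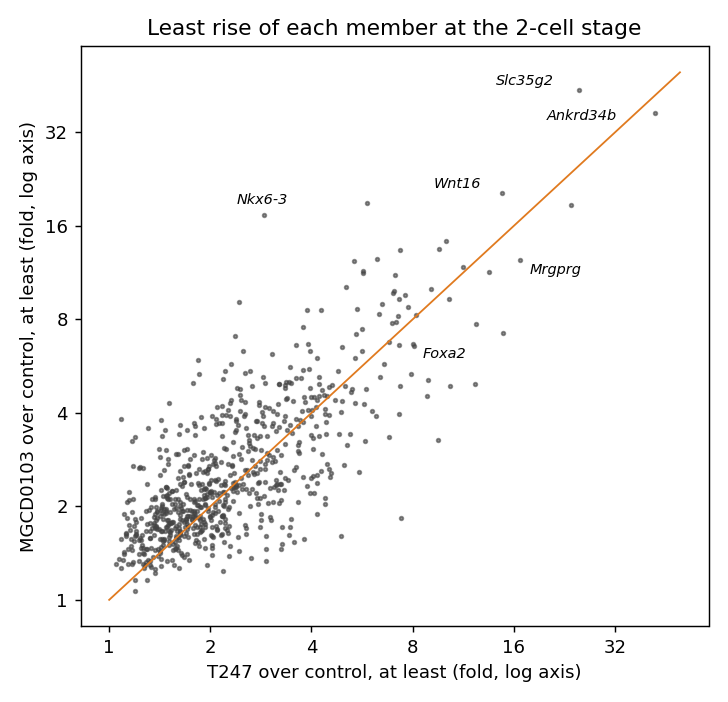
Least rise of each of the 731 members at the 2-cell stage, with T247 over control on the x axis and MGCD0103 over control on the y axis (fold, both log axes), 1 point per probe and a line where both are equal. Most points lie between 1 and 4, Ankrd34b and Slc35g2 lie at the far end, and 470 of the 731 members had the higher mean with MGCD0103.

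Ankrd34b, which encodes an ankyrin repeat protein, read 3.68, 11.8 and 11.2 (normalized intensity, in the arbitrary units of the scanner) in the 3 control samples, 709, 609 and 593 with T247 and 498, 530 and 661 with MGCD0103. All 6 treated values lay far above the control, at least 42.1-fold and at least 37.0-fold higher, and a second probe of the gene was also a member, at least 8.19-fold and 8.26-fold higher. Slc35g2, a solute carrier of the nucleotide sugar transporter type, read 14.7, 14.4 and 11.6 in control, 257, 507 and 491 with T247 and 737, 739 and 633 with MGCD0103. The 2 treated groups did not overlap for this probe, and the bounds were 25.0-fold and 43.9-fold. Wnt16, a secreted Wnt ligand, read 17.5, 13.2 and 13.8 in control, 248, 237 and 215 with T247 and 307, 301 and 359 with MGCD0103, at least 14.8-fold and 20.4-fold higher. Its second probe was a member with small bounds of 1.64-fold and 1.42-fold. That probe read 26.0, 31.7 and 18.2 with T247 and 21.1, 22.3 and 20.6 with MGCD0103, against 26.2, 38.2 and 39.6 in the untreated morula. The probes of this gene thus differed in size and in course. Foxa2, a forkhead factor of the endoderm, read 3.76, 3.72 and 3.84 in control, 116, 122 and 126 with T247 and 108, 80.3 and 118 with MGCD0103. The treated groups overlapped, and both were above all controls, by at least 8.04-fold and 6.67-fold. Ifi44, an interferon-induced gene, read 3.55, 6.35 and 8.26 in control, 111, 133 and 82.9 with T247 and 179, 172 and 154 with MGCD0103, at least 7.09-fold and 11.1-fold higher. Tnfaip2, first described as induced by tumor necrosis factor, had 2 member probes, with bounds of 7.02-fold and 3.72-fold for T247 and 9.71-fold and 5.19-fold for MGCD0103. Ephx1, the microsomal epoxide hydrolase, and Gprc5b, an orphan receptor, had bounds of 13.5-fold and 9.62-fold with T247, but each has another probe that was on in the control, so these genes as a whole were not silent. A probe on chromosome 6 without a current gene name was at least 23.6-fold and 18.7-fold higher.

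The 2 inhibitors raised most members to like levels. The mean with MGCD0103 was above that with T247 for 470 members (64.3%), at least 2-fold above for 42, and at least 2-fold below for 19. Nkx6-3, a homeobox factor of the gut, was among the most unequal, with 49.5, 40.1 and 41.4 after T247 and 261, 248 and 280 after MGCD0103. Both groups lay above the control values of 3.50, 3.85 and 3.55. Olfr1500, an olfactory receptor, went the other way, with 117, 126 and 93.8 after T247 and 32.9, 33.7 and 19.2 after MGCD0103. Cd274, which encodes the immune checkpoint ligand PD-L1, read 217, 181 and 208 after MGCD0103, and its bounds were 7.36-fold with T247 and 13.4-fold with MGCD0103. These differences were described only, as the same arrays chose the members.

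**Figure D2:**
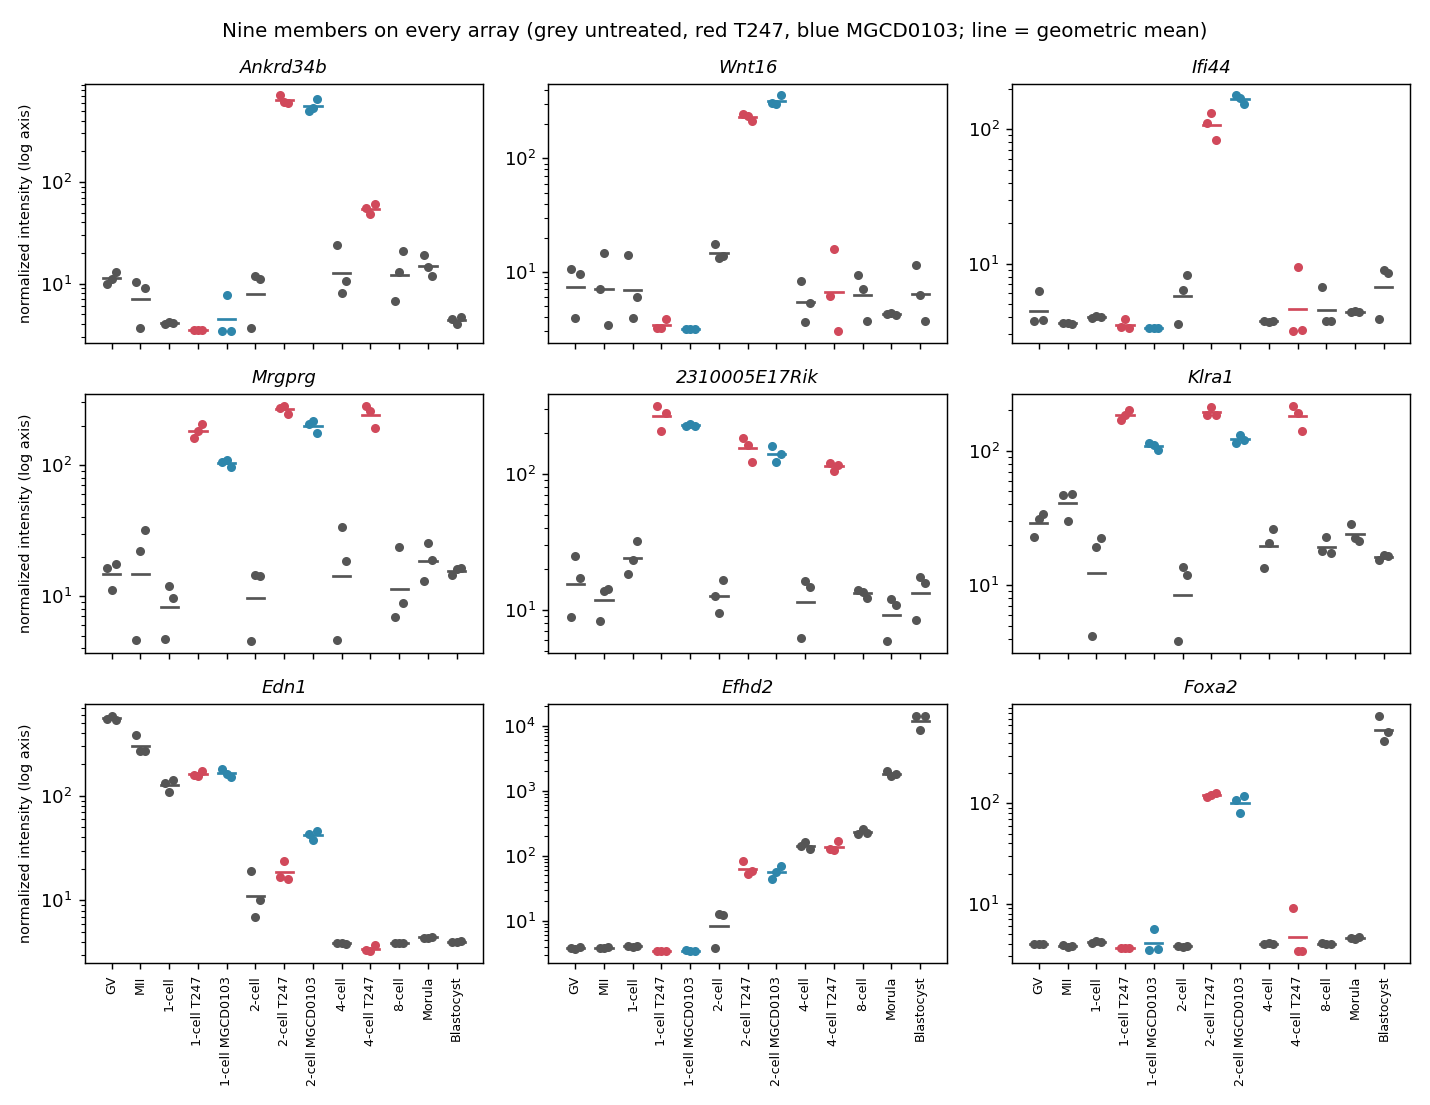
Normalized intensity (log axis) of 9 members on every array, in developmental order along the x axis, with 1 point per sample (grey untreated, red T247, blue MGCD0103) and a line at the geometric mean of the 3. For each gene 1 probe is plotted, and the second member probe of Wnt16, which is not shown, had no peak in treated 2-cell embryos. The plotted probes of Ankrd34b, Wnt16 and Ifi44 peaked in treated 2-cell embryos, and Mrgprg, 2310005E17Rik and Klra1 were high in treated embryos at every stage. Edn1 was high in oocytes and zygotes, and Efhd2 and Foxa2 reached their highest values in the blastocyst.

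Most members were not silent throughout normal development. Counting a probe as on in a condition only if all 3 arrays carried the flag, 423 members (57.9%) were on in at least 1 of the untreated conditions. In the GV oocyte 234 members were on (32.0%, against 50.7% of all probes), which fell to 84 in the MII oocyte (11.5%, all probes 42.6%) and 92 in the 1-cell control (12.6%, all probes 43.9%). After the 2-cell stage, where none was on by the rule, 97 were on in the 4-cell control (13.3%, all probes 41.5%), 102 at the 8-cell stage (14.0%, all probes 41.4%), 149 in the morula (20.4%, all probes 43.3%) and 224 in the blastocyst (30.6%, all probes 47.6%). A nearer background is given by the 19475 probes that were off on all 9 2-cell arrays. Of these 4.91% were on in the GV oocyte, 1.22% in the 1-cell control and 7.97% in the blastocyst. The 4223 probes that were off in the 2-cell control and on on 1 to 5 treated arrays were nearer the members, with 24.1%, 9.05% and 20.6%. Of the 43 on with MGCD0103 and off on all 3 T247 arrays, 53.5% were on in the GV oocyte and 30.2% in the 1-cell control. A course through the oocyte or the later embryo was thus not particular to the members, and these shares were not tested. Counts of probes that are on depend on the flag, and with that for a positive and significant signal 461 members were on in the GV oocyte, 344 in the MII oocyte and 381 in the 1-cell control. Both ends of the course were occupied by 77 members, on in the GV oocyte and in the blastocyst, and 142 members (19.4%) were on on no untreated array at all. For these counts, and for the 423 above, the share over all probes was not counted, so they are not shown to be traits of the members.

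**Figure D3:**
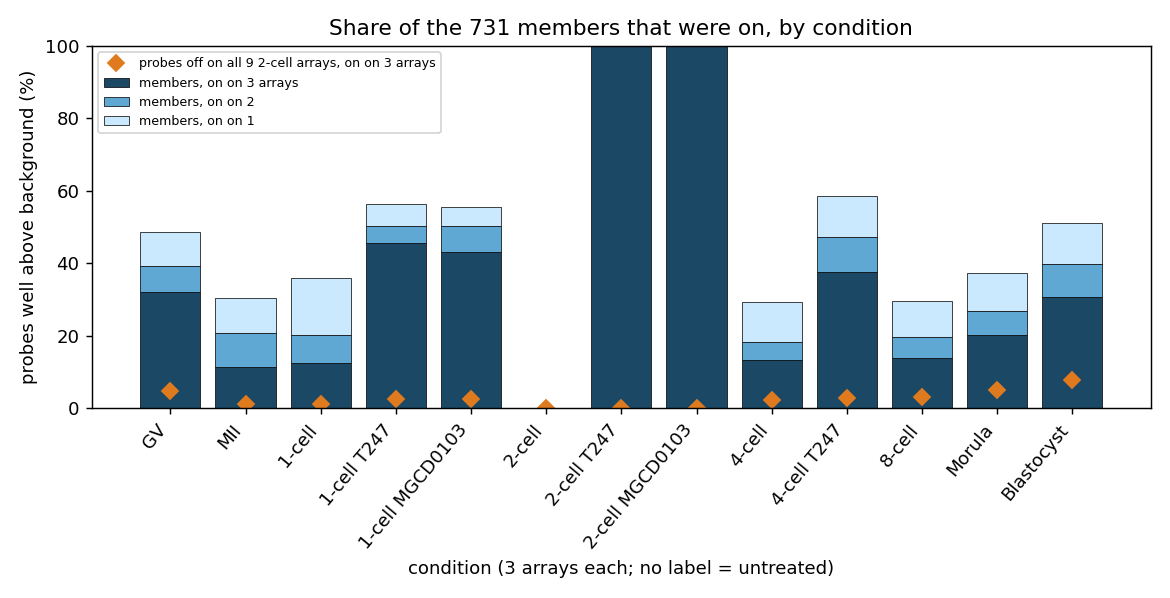
Share of the 731 members (%) that were on on 3, 2 or 1 arrays (stacked bars) in each of the 13 conditions on the x axis, with diamonds for the probes that were off on all 9 2-cell arrays. The bars for 3 arrays are high in the GV oocyte (32.0%) and the blastocyst (30.6%) and rise with treatment at the 1-cell and 4-cell stages, while the diamonds reach 7.97% at most.

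A group of 92 members was on in the untreated zygote and off in the 2-cell control, the course of maternal transcripts that are cleared. Of these, 86 were on in the GV oocyte and 53 in the MII oocyte, and 72 were called lower in the 4-cell than in the 1-cell control. In that comparison 41.1% of all probes tested were called lower, and 29.7% of the other tested probes off in the 2-cell control. The choice of members on in the 1-cell control favours such a call, and the number of these calls depends on the processing. Edn1, the vasoconstrictor peptide endothelin-1, read 547, 584 and 533 in the GV oocyte, 132, 108 and 143 in the 1-cell control and 18.9, 6.86 and 10.0 in the 2-cell control. At the 2-cell stage it read 16.7, 23.6 and 16.1 with T247 and 43.2, 37.9 and 46.3 with MGCD0103. The T247 values overlapped the control range, with a bound of 1.18-fold, and the MGCD0103 values lay above it, at least 2.69-fold higher. In zygotes Edn1 was already on in all 3 groups and did not pass the test with either inhibitor (log2 differences 0.35 and 0.38, limma adjusted p = 0.289 and 0.28). Fstl1, a secreted glycoprotein, followed the same course, with 115, 210 and 155 in the 1-cell control and 11.7, 5.18 and 20.5 in the 2-cell control against 32.1, 31.8 and 28.5 with T247 and 39.6, 31.3 and 39.4 with MGCD0103. Zfp551, a zinc finger gene, had bounds of 1.15-fold with T247 and 2.23-fold with MGCD0103. Macroh2a3, a histone variant gene of the macroH2A type, read 1200, 1330 and 1270 in the GV oocyte but was off in the 1-cell control. In these oocyte transcripts the treated 2-cell level was a fraction of the oocyte level, and whether it was retained or newly made RNA was not tested.

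Other members belonged to the stages that follow. There were 44 members that were off on all GV, MII and 1-cell control arrays and on in the 4-cell control, and 23 of them were also on at the 8-cell, morula and blastocyst stages. Phlda3, a pleckstrin homology gene known as a target of p53, read 4.57, 8.98 and 13.5 in the 2-cell control, 24.3, 23.8 and 28.7 with T247, 28.8, 32.6 and 38.1 with MGCD0103 and 898, 1260 and 1040 in the 4-cell control. Its treated 2-cell level was above the control and far below that of the normal 4-cell embryo. Efhd2, a calcium-binding protein, read 82.4, 52.7 and 58.4 with T247 and 43.3, 56.2 and 70.6 with MGCD0103 at the 2-cell stage, nearer its 4-cell control values of 139, 165 and 127, and rose to 14100, 8530 and 14200 in the blastocyst. Prl7b1, a placental member of the prolactin family, was on with 51.5, 51.5 and 49.1 after T247 and 57.6, 81.2 and 92.6 after MGCD0103, and read 137, 239 and 174 in the 4-cell control. Of the 44 members 34 were off on all 6 treated 1-cell arrays, so in treated embryos they first carried the flag after the zygote samples were taken.

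At the 1-cell stage, 12 h after insemination, more members were above background in treated than in untreated embryos. The flag was set on all 3 arrays for 334 members with T247 (45.7%, against 49.5% of all probes) and for 316 with MGCD0103 (43.2%, all probes 49.0%), compared with the 92 in the untreated zygote. The lowest signal called well above background was 18.4 to 22.0 on the untreated 1-cell arrays, 13.9 to 15.6 with T247 and 13.3 to 16.8 with MGCD0103. These flag counts were thus taken at unequal limits, and the part of the limits was not tested. In the limma test, 200 members were called up with T247 (27.4%), against 7.28% of the 36285 probes tested, and 2 were called down (0.274%, against 0.896%). With MGCD0103 147 were called up (20.1%, against 4.47%) and 1 was called down (0.137%, against 0.659%). Among the 5137 other tested probes that were off in the 2-cell control, 8.99% were called up with T247 and 5.63% with MGCD0103. The 2 comparisons share their control samples. The median member differed by 0.43 and 0.32 on the log2 scale, the median probe by 0.02 and 0.10. The p-values were adjusted over all probes tested and measure the spread between samples of pooled embryos. A call needed a log2 difference of at least 1 and an adjusted p under 0.05, and 105 of the 200 and 71 of the 147 called up were off on all 3 control arrays, for which the size is only a bound. With normexp background correction, which adds an offset to dim signals, the calls dropped to 55 and 29. The members called down were Bves and a lincRNA probe of chr3:58496493-58601253 with T247, and a probe without a current gene name with MGCD0103, all named after their values were seen.

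Members fell into unlike sets at the 1-cell stage. A set of 75 (10.3%) was off on all 3 control arrays and on on all 3 arrays with each inhibitor, a pattern shown by 0.895% of the other 23698 probes off in the 2-cell control. A larger set of 285 was off on all 9 1-cell arrays. In treated embryos they first carried the flag between 12 and 24 h after insemination, 2 h and 14 h after inhibitor removal. A probe without this flag can hold a weaker signal. With the flag for a positive and significant signal, 498 members were on in the T247 1-cell embryos. The remaining 279 were mixed. No member was on in the 1-cell control and off with both inhibitors, and neither was any of those 23698 probes.

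**Figure D4:**
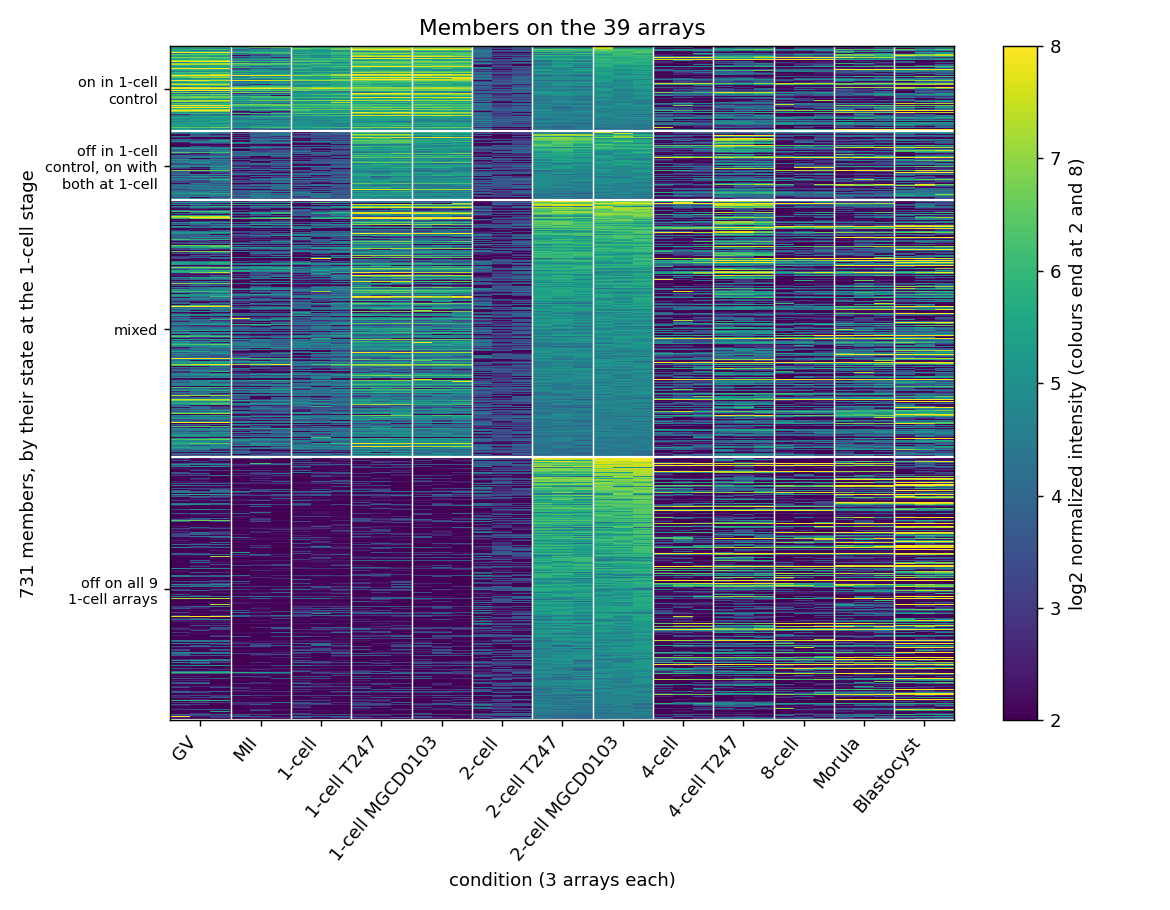
Log2 normalized intensity (colour, ends at 2 and 8) of the 731 members, 1 line per probe, on the 39 arrays in developmental order, grouped by the state of the probe at the 1-cell stage. The 92 members at the top are bright in the GV oocyte and in all zygotes, the 75 below them are dark in untreated and bright in treated zygotes, and the 285 at the bottom are dark in all zygotes and bright in treated 2-cell embryos.

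A number of members were higher with treatment than in control at the 1-, 2- and 4-cell stages, though not all at a steady level. There were 118 members called up with T247 at both the 1-cell and the 4-cell stage (16.1%, against 3.33% of all probes tested). Mrgprg, a receptor of the Mas-related family of sensory neurons, read 4.74, 12.0 and 9.76 in the 1-cell control, 162, 181 and 207 with T247 and 105, 109 and 97.4 with MGCD0103. The groups were well apart, at least 9.30-fold (limma adjusted p = 1.69e-06) and 5.30-fold (adjusted p = 5.28e-05) above the control. At the 2-cell stage it read 273, 284 and 246 with T247 and 205, 218 and 176 with MGCD0103, and at the 4-cell stage 284, 258 and 193 with T247 against 4.64, 33.7 and 18.4 in control, where 1 array was well above background (log2 difference 4.09 ± 0.58 SE, adjusted p = 2.31e-06). The RIKEN cDNA gene 2310005E17Rik read 18.5, 23.3 and 32.1 in control zygotes, 319, 207 and 283 with T247 and 226, 235 and 224 with MGCD0103 (log2 differences 3.47 ± 0.35 and 3.25 ± 0.35 SE, adjusted p = 2.95e-08 and 1.55e-07). Klra1, a killer cell receptor of the Ly49 family, rose by 3.92 ± 0.41 and 3.16 ± 0.41 (SE) on the log2 scale in zygotes and by 3.22 ± 0.41 in 4-cell embryos. Clec18a, a C-type lectin, was higher in treated zygotes (93.5, 72.0 and 87.1 with T247) than in treated 2-cell embryos (31.7, 28.0 and 25.4). The same order was seen in 4930447J18Rik, which read 250, 228 and 238 in T247 zygotes and 21.5, 24.6 and 14.8 in T247 2-cell embryos. Kcnip3, a calcium-binding protein that interacts with potassium channels, read 98.0, 62.8 and 78.7 in T247 zygotes and only 25.7, 18.3 and 22.3 in T247 2-cell embryos. In T247 4-cell embryos it read 136, 100 and 214 against 24.4, 17.9 and 20.7 in control (log2 difference 2.78 ± 0.47 SE, adjusted p = 2.86e-05).

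At the 4-cell stage, 48 h after insemination, 276 members were on with T247 (37.8%, against 46.9% of all probes). Here too the limits of the flag were unequal, 16.7 to 19.3 on the control arrays and 13.7 to 14.1 with T247. Their part in the flag patterns was not tested. The test called 230 members up (31.5%, against 13.2% of all probes tested) and 33 down (4.51%, against 5.44%). Among the 5137 other tested probes off in the 2-cell control, 10.4% were called up. Of the 230, 106 had been called up in neither treated zygote group, a pattern of 14.5% of the members against 9.73% of all probes tested. For 178 of them the 4-cell control was off on all 3 arrays. The pattern on with T247 and off in control was held by 119 members (16.3%), against 1.31% of the other probes off in the 2-cell control, and the reverse by a single member, Sfrp5, which encodes a secreted inhibitor of Wnt signals and was named after its values were seen (0.137%, against 0.181%). The calls dropped to 47 under normexp correction and to 166 in a fit of the 4-cell arrays alone, in which 282 members passed the filter on dim probes.

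Ankrd34b was off on all 9 1-cell arrays, peaked at the 2-cell stage and was still on in the T247 4-cell embryos, with 55.9, 48.0 and 60.2 against 23.7, 8.13 and 10.6 in control (log2 difference 2.10 ± 0.42 SE, limma adjusted p = 0.000178). Il10ra, the receptor for interleukin-10, read 171, 171 and 162 in T247 2-cell embryos and 33.5, 33.3 and 25.2 in T247 4-cell embryos, at least 1.88-fold above the 4-cell control (adjusted p = 4.71e-10). Olfr1500 was higher at the 4-cell than at the 2-cell stage with T247, with 190, 263 and 238, at least 13.5-fold above control (adjusted p = 8.33e-09). Rbmy, the RNA-binding motif gene of the Y chromosome, read 543, 601 and 314 with T247 and 71.3, 92.5 and 22.0 in the 4-cell control (log2 difference 3.15 ± 0.39 SE, adjusted p = 3.15e-07). It was chosen after its values were seen and belongs to a family of near-identical copies, which the probe may not tell apart.

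The members called lower with T247 at the 4-cell stage included genes of the normal cleavage embryo. The 33 were 4.51% of the members, against 5.44% of all probes tested and 7.48% of the other tested probes off in the 2-cell control. Lower calls were thus not particular to the members. Of the 33, 10 were among the 44 members that appear in the 4-cell control, and 10 others of the 44 were called higher. The like shares over all probes with that course were not counted. Phlda3 fell by 1.46 ± 0.28 (SE) on the log2 scale, from 898, 1260 and 1040 to 475, 216 and 544 (limma adjusted p = 0.000138), although at the 2-cell stage its treated values were above the control. Zfp932, a zinc finger gene that has another probe on in the 2-cell control, fell from 195, 161 and 141 to 32.3, 33.3 and 43.4 (log2 difference -2.19 ± 0.36 SE, adjusted p = 1.84e-05). Foxf1, a forkhead factor of mesoderm, fell from 94.9, 147 and 132 to 24.1, 19.1 and 52.9 (log2 difference -2.08 ± 0.48 SE, adjusted p = 0.00105). Dynap fell from 737, 787 and 1230 to 226, 157 and 436 (log2 difference -1.84 ± 0.73 SE, adjusted p = 0.0444). Krt19, a keratin of simple epithelia, read 108, 23.4 and 17.7 in control and 7.15, 12.2 and 12.9 with T247, at least 3.08-fold lower (adjusted p = 0.00747), with 1 high control sample. Efhd2 and Prl7b1 showed no such fall, with log2 differences of -0.05 (adjusted p = 0.909) and 0.11 (adjusted p = 0.811).

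Between the 1-cell and 4-cell control embryos 125 members were called up (17.1%, against 28.3% of all probes tested) and 196 down (26.8%, against 41.1%). With arrays scaled to their 75th percentile the split turned to 200 up and 106 down, under a scaling that moved the median of all probes by 0.70, and under normexp correction it was 39 up and 14 down, so the balance of rises and falls depends on the processing. Much of this comparison lies below background, with the dimmer group off on all 3 arrays for 110 of the 125 and 185 of the 196, and both groups off for 14 and 41. The change with T247 itself differed between the 1-cell and 4-cell stages for 139 members, with 66 higher at the 4-cell stage (9.03%, against 6.42%) and 73 lower (9.99%, against 5.35%). Under normexp correction the split was 12 higher and 39 lower.

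**Figure D5:**
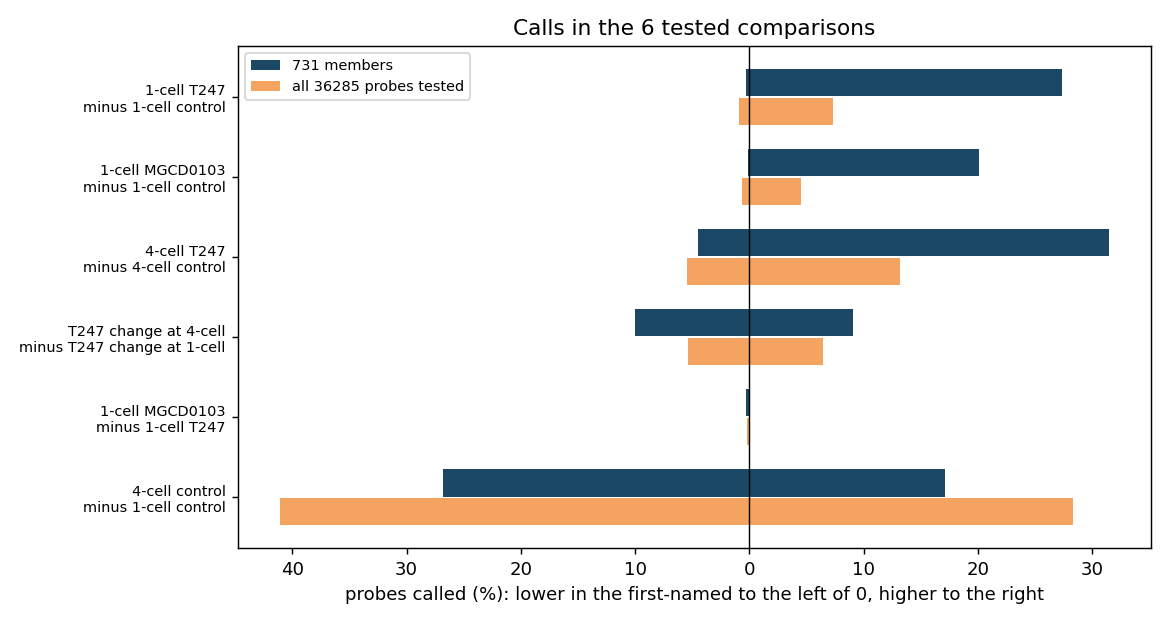
Share of probes called (%) in the 6 tested comparisons, with the 731 members in blue and all 36285 tested probes in orange, lower calls to the left of 0 and higher calls to the right. Members exceed all probes to the right in the treated against control comparisons (27.4%, 20.1% and 31.5%) and fall below them in the comparison of 4-cell with 1-cell control.

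A set of 77 members (10.5%) was well above background on the 6 treated 2-cell arrays and on no other array. Besides Ifi44 it held Dmrtc1b, a gene of the DMRT family, with 120, 103 and 108 after T247 and 98.1, 154 and 184 after MGCD0103, against 6.18, 10.5 and 7.30 in control. C4bp, which encodes the complement C4 binding protein, read 61.7, 59.9 and 57.8 after T247 and 96.9, 91.5 and 97.3 after MGCD0103, against 3.64, 3.60 and 3.73. Rhoj, a small GTPase of endothelial cells, was at least 5.65-fold and 7.47-fold higher, Zfp286 5.65-fold and 6.35-fold, and Slc25a54, a mitochondrial carrier, 3.98-fold and 3.91-fold. That all of these were off in the T247 4-cell embryos follows from how the set was chosen.

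Of the 731 members 417 carry a current gene name, for 406 genes of the 22339 named genes on the array (1.82%). A gene can be a member only if it has a probe that was off in the 2-cell control, and of the 8509 genes with such a probe 4.77% were members. By role, transcription factors of the homeobox and Pax families gave 11 of 234 genes (4.70%, or 11.1% of the 99 with such a probe), among them Nkx6-3, Hmx3, Hmx2, Hoxc4, Hoxc13, Hoxd10, Dlx5, Hlx and Six3. Of their 11 probes 1 was called up in T247 zygotes, none in MGCD0103 zygotes and 4 in T247 4-cell embryos. Hmx3, a factor of the inner ear and hypothalamus, read 133, 111 and 116 with T247 and 50.4, 115 and 90.5 with MGCD0103 at the 2-cell stage, against 3.62, 10.9 and 9.88. Hoxc4 read 60.3, 59.3 and 63.6 with T247 and 33.4, 30.9 and 52.4 with MGCD0103, and was on in the blastocyst with 74.3, 146 and 165. The Gata, Sox, Fox and T-box families gave 4 of 89 genes (12.1% of 33), Foxa2, Foxj1, Foxf1 and Tbx18. Foxj1, which drives formation of motile cilia, read 110, 119 and 121 with T247 and 138, 136 and 169 with MGCD0103 against 7.29, 12.6 and 16.6. The bHLH and nuclear receptor families gave 4 of 111 (8.51% of 47), Bhlhe23, Nr2f1, Rorb and Vdr, and 4 of their 5 probes were called up in T247 4-cell embryos. Bhlhe23, a factor of neurons, had 2 member probes, which read 43.8, 48.0 and 17.8 and 28.6, 29.9 and 5.14 in those embryos, at least 2.07-fold (limma adjusted p = 1.55e-08) and 1.01-fold (adjusted p = 0.000886) above a control that was off.

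Secreted developmental signals gave 8 of 156 genes (5.13%, or 11.1% of 72), Wnt16, Bmp2, Ihh, Fgf21, Edn1, Grem1, Sema3c and Sfrp5. Bmp2, a bone morphogenetic protein, read 60.0, 53.4 and 40.4 in T247 2-cell embryos and was at least 4.44-fold higher with MGCD0103, against control values of 3.91, 7.43 and 3.66. Ihh, a hedgehog ligand, read 49.4, 59.3 and 71.6 with T247 and 61.4, 63.9 and 90.2 with MGCD0103 against 3.78, 13.6 and 11.5. Both were on at the 8-cell, morula and blastocyst stages in untreated embryos, and Ihh already read 36.1, 33.7 and 38.4 in the 4-cell control. Of the 9 probes of this list 1 was called up in zygotes with each inhibitor, 1 up and 1 down in T247 4-cell embryos. The 1371 olfactory, vomeronasal and taste receptors, nearly all of them silent, gave 13 members (0.948%, or 1.08% of 1202), fewer per gene than the array as a whole on either base. Other G-protein-coupled receptors gave 10 of 337 (4.65% of 215), among them Mrgprg, C3ar1 and Ccr7, and 2, 2 and 4 of the 10 probes were called up in T247 zygotes, MGCD0103 zygotes and T247 4-cell embryos. Ccr7, a chemokine receptor of lymphocytes, read 43.1, 35.1 and 43.0 with T247 and 64.9, 76.6 and 84.3 with MGCD0103 against 21.4, 5.77 and 6.05.

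Among genes of the cell surface, ion channels gave 7 of 317 (3.95% of the 177 with a probe off in the 2-cell control) and solute carriers 9 of 394 (6.47% of 139). Gjd3, a gap junction protein, was called up at the 1-cell stage with both inhibitors and at the 4-cell stage with T247, with 123, 143 and 150 in T247 zygotes against 23.3, 27.1 and 31.1 (log2 difference 2.35 ± 0.31 SE, limma adjusted p = 1.82e-06). Slc6a3, the dopamine transporter, read 55.1, 61.8 and 59.2 with T247 and 131, 110 and 151 with MGCD0103 at the 2-cell stage against 6.74, 9.96 and 4.44. Genes of synapses and neuronal vesicles gave 11 of 225 (4.89%, or 8.73% of 126), with 3 of 11 probes called up in T247 zygotes, 2 in MGCD0103 zygotes and 3 in T247 4-cell embryos. Cdh22, a cadherin of the brain, read 57.0, 65.6 and 55.6 with T247 and 71.9, 76.6 and 105 with MGCD0103 at the 2-cell stage and 38.0, 36.4 and 18.5 in T247 4-cell embryos, at least 1.83-fold above their control (adjusted p = 8.98e-10).

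Immune genes gave 24 of 549 (4.37%, or 7.87% of the 305 with a probe off in the 2-cell control), with 25 probes, of which 6, 4 and 8 were called up in T247 zygotes, MGCD0103 zygotes and T247 4-cell embryos and 1 was called down in the last. They included the cytokine receptors Il10ra, Il4ra and Ifnar2, the receptors Tlr2 and Tlr6 for microbial products, and Tnf. Keratins and skin barrier genes gave 5 of 178 (4.20% of 119), cytochrome P450 and conjugating enzymes 6 of 240 (4.55% of 132), genes named Zfp 7 of 379 (6.48% of 108) and germline and testis genes 5 of 273 (4.13% of 121). Imprinted genes gave 3 of 68 (12.0% of 25), Airn, Dlx5 and H19, of which Airn has another probe on in the control. H19, the noncoding RNA of the Igf2 locus, read 32.1, 32.9 and 28.1 with T247 and 37.1, 41.0 and 34.2 with MGCD0103, far from its blastocyst values of 21400, 6150 and 10400. None of the 76 genes of the normal 2-cell stage and none of the 83 oocyte genes was a member, of which 2 and 4 had a probe that was off in the 2-cell control. These shares are counts beside that of the array and were not tested.

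The array covers many genes by a single probe, which limits what a member says about its gene. Of the 406 genes 251 have 1 probe on the array, 11 have several member probes and 326 have no probe that was well above background on any 2-cell control array. For 57 genes another probe was on in the 2-cell control. They include Ephx1, Gprc5b, Zfp932, Airn, Erf, Ropn1l, Cbr2, Tnfrsf22 and Tnfrsf23, and Cacna1h, Tgm2 and Zfp467 of the lists. There were 12 pairs of members that are next to each other among the genes of the annotation, such as Hmx3 and Hmx2, Tnfrsf22 and Tnfrsf23, Dcxr and Cbr2, Edn1 and Phactr1, and Olfr884 and Olfr885. Olfr884 with Olfr885 and Tnfrsf22 with Tnfrsf23 are related in sequence, and a probe may read both.

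The array also carries probes for long intergenic noncoding RNA (lincRNA) regions, and 205 members were of this kind (28.0%, against 29.2% of all probes and 41.9% of the probes off in the 2-cell control). Protein-coding genes made up 381 members (52.1%, against 35.7% of the probes off in the 2-cell control), and 37 members (5.06%) lay on the X chromosome, against 3.99% of all probes. The lincRNA members came from 181 regions, of which 20 held several member probes. The region chr3:34497447-34501170 (mm9, minus strand) had 3 probes on the array and all 3 were members. The probe with the highest values read 98.5, 116 and 101 with T247 and 113, 105 and 138 with MGCD0103 at the 2-cell stage against 4.57, 6.28 and 3.60, at least 6.95-fold and 7.82-fold higher. The other probes of the region were at least 3.70-fold and 2.30-fold higher with T247, and outside the treated 2-cell arrays the flag was set on single arrays only. In the region chr3:58496493-58601253 (mm9, plus strand) 2 of 3 probes were members, on in the GV oocyte with 73.7, 55.2 and 56.4 for the probe called down in T247 zygotes, and the third probe was on in the 2-cell control.

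At the 1-cell stage, the only stage beside the 2-cell at which both inhibitors were measured, they were compared at the same dose and time. No member was called higher with MGCD0103 (0%, against 0.0496% of all probes tested) and 2 were called lower than with T247 (0.274%, against 0.212%). At an unadjusted p under 0.05, 17 were higher and 44 lower. Of the 2, a lincRNA probe of chrX:91668178-91668700 (mm9, minus strand) had a log2 difference of -1.88 (limma adjusted p = 0.0426) and was on in both treated groups, and Gm5591 was off in both. The 95% interval of the difference lay within 1 log2 unit of 0 for 273 members and reached beyond it for 458, with a median half-width of 0.81, so for those 458 the samples do not bound the difference to that size. Leaving out single arrays of the treated zygotes gave 0 to 2 calls, with 0 without MGCD0103 replicate 1 or 3 or T247 replicate 1. In the flags, Krt24 was on with T247 and off with MGCD0103, and Tmx4, Ropn1l and a lincRNA probe the reverse.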

How the data were processed

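Per the file headers, the authors' scanner software (Agilent Feature Extraction 10.7.1.1, while the submitters' notes name 9.5.1.1) subtracted the background from each spot, and its processed intensities and flags were used as deposited. The series table deposited by the authors holds log2 values that they had filtered and normalized, and none of the members is in it. The table held no column of another series. Spots of 1 probe were averaged, and a probe with several spots was on if the flagged share of them was at least 0.5, the flag being that of a spot well above background. Intensities were put on the log2 scale and adjusted by smooth quantile normalization over the 39 arrays of 13 conditions, after the method the study names, with a smoothing window of 5 percent. The probes tested, 36285 of 55681, were well above background on all 3 arrays of at least 1 condition, which every member passes by its rule.

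All conditions entered 1 limma fit (limma 3.58.1, R 4.3.3), with empirical Bayes moderation and Benjamini-Hochberg adjustment over all probes tested. A call needed a log2 difference of at least 1 and an adjusted p under 0.05. Tested on simulated data for the T247 comparison at the 1-cell stage, with 36285 probes, the fit recovered 84 of 100 probes changed by 1.5 and 99 of 100 changed by 3 on the log2 scale, and called 8 unchanged probes. The changed probes were drawn from brighter probes of small spread, with no slide difference. The members' mean in the 1-cell control had a median of 9.27 and an upper quartile of 19.6. Recovery for such dim probes was not simulated. Tables were built with Python 3.11.15, numpy 2.4.6, pandas 2.3.3, scipy 1.17.1 and matplotlib 3.10.9, and slide was fitted as a random block with statmod 1.5.0. The precision is limited by the number of arrays, 3 per condition, and intensities carry no count from which depth could be known.

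Where a group was off on all 3 arrays, a fold is a lower bound, the mean of the higher group over the mean of, per array, the larger of the probe's own value and the lowest signal called well above background. Probes were named through RefSeq, 27318 by accession, 3527 by symbol and 553 by an older symbol, and 24283 have no name here. No share of motifs over the members is reported because RefSeq promoters were at hand for 303 of the 406 member genes (74.6%), which makes such a check void.

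Named genes were those with the largest 2-cell rise in mean log2 intensity, control values below background included (10), which can order genes unlike the bounds, with the largest change among members called up at each tested stage (8), the brightest among members on in treated 2-cell embryos only (8), the 3 brightest in each of 5 untreated conditions, the 4 with the largest rise in each gene list, the 5 largest falls, 3 at each side of the threshold, the 5 with the largest difference between the inhibitors at the 1-cell stage among those called, and Gata2, Vax2, Magef1 and Hdac7 where they are members, which none is. Cd274, Tnfaip2, Wnt16, Prl7b1 and Rbmy were chosen after their values were seen, as were genes given only as members of a list or of a flag pattern. The members and the lists were chosen with earlier results of these data known.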

Additional observations from a re-analysis of the deposited data

Results flagged for a closer look

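The change with T247 at the 4-cell stage was compared with its change at the 1-cell stage in the same limma fit, and 139 members passed the test of that difference. Values are the 4-cell change minus the 1-cell change on the log2 scale, and where a group was below background they are fitted values and not bounds. Among the named genes the change was higher at the 4-cell stage for both probes of Ankrd34b (2.35, adjusted p = 0.00498, and 2.07, adjusted p = 1.31e-07), Gprc5b (2.74, adjusted p = 1.77e-05), Il10ra (3.34, adjusted p = 2.36e-07) and Cdh22 (3.07, adjusted p = 3.98e-07). It was also higher for both probes of Bhlhe23 (3.30, adjusted p = 7.44e-06, and 2.08, adjusted p = 0.0102), Rbmy (3.45, adjusted p = 5.89e-05), Hoxc4 (1.87, adjusted p = 0.0011), Nr2f1 (2.04, adjusted p = 0.00787), Cacna1g (2.05, adjusted p = 0.00798), Foxj1 (1.91, adjusted p = 0.0161), H19 (2.78, adjusted p = 0.0181) and Zfp467 (2.89, adjusted p = 0.039). The change was lower at the 4-cell stage for Zfp932 (-2.89, adjusted p = 0.000162), Sycn (-1.82, adjusted p = 0.000143), Adam18 (-1.99, adjusted p = 0.00186), Ifi204 (-2.57, adjusted p = 0.00713), Foxf1 (-2.26, adjusted p = 0.0194), Phlda3 (-1.21, adjusted p = 0.0328), Ephx1 (-1.60, adjusted p = 0.0366) and Ankmy1 (-1.52, adjusted p = 0.047). With T247, Sycn, a protein of pancreatic secretory granules, rose by 1.02 ± 0.22 (SE) on the log2 scale at the 1-cell stage (adjusted p = 0.00133) and differed by -0.80 ± 0.22 at the 4-cell stage, short of the size a call needs.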

How the results depend on the processing

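No named gene turned its direction, but the balance of rises and falls between the 1- and 4-cell controls, 125 up and 196 down, became 200 and 106 with scaling to the 75th percentile and 39 and 14 with normexp correction. The widest drop in calls came with normexp background correction, whose offset of 50 compresses dim signals. It gave 55 calls against 202 with T247 and 29 against 148 with MGCD0103 at the 1-cell stage, 47 against 263 at the 4-cell stage, 51 against 139 for the difference between the stages (33 shared) and 53 against 321 between the controls. A fit of the 4-cell arrays alone called 166, with 282 members tested, and the study's filter left 184 between the controls. Between the inhibitors, against 2 members lower with MGCD0103, there were 0 calls under normexp correction, quantile normalization or slide as a random block, 4 with scaling to the 75th percentile, and 1 with the arrays of the stage alone or the study's filter, a different member that was higher with MGCD0103, and the cause was not tested. A rule of on on all 3 arrays of 1 inhibitor and off on all 3 of the other found 55 probes for T247 and 43 for MGCD0103. With the flag for a positive and significant signal the rule found 329 probes, and under that flag 461 members were on in the GV oocyte, 344 in the MII oocyte, 381 in the 1-cell control, 306 in the 4-cell control, 322 at the 8-cell stage, 372 in the morula, 452 in the blastocyst, 520 in the T247 4-cell and 492 in the MGCD0103 1-cell embryos. With 2 of 3 arrays enough, 153 were on in the MII oocyte and 149 in the 1-cell control. Leaving out single replicates gave 166 to 202, 119 to 150 and 225 to 259 members called in the treated comparisons at the 1-cell stage with T247, with MGCD0103 and at the 4-cell stage, 118 to 140 for the difference between stages, 304 to 325 between the controls, 0 to 2 between the inhibitors and 735 to 1118 members. The replicate block gave 202, 155, 265, 147, 3 and 325 calls in the 6 comparisons. Treated and control samples of the same number did not deviate together (r from -0.0347 to 0.0191), so the numbers do not pair them. Slide as a random block gave 193, 141 and 257 calls in the treated comparisons. As no slide held both treated and untreated arrays, this block cannot separate slide from treatment. Of 1965 values for 128 comparisons of named genes, 1736 stayed on their side of the threshold and 229 lost it, of which 87 under normexp correction. The median of all probes moved by -0.11, -0.17 and -0.14 with scaling to the 75th percentile in the treated comparisons, by -0.13 with quantile normalization for MGCD0103 and by -0.12 to -0.16 without a filter on dim probes. The series table of log2 values gave no value, as it holds no member.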
